A study of Homo sapiens with 16 samples.

Results

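The genes of MHC class I antigen presentation were followed in a leukaemia line under a glucocorticoid. The set held 9 genes, which are HLA-B, HLA-C, HLA-E, HLA-F, B2M, TAP1, TAP2, TAPBP and NLRC5, out of 18132 genes measured by probe sets with a single annotated gene. A probe set, the group of short probes that reads 1 transcript region on the array, was taken for a member when the platform annotation gave it exactly 1 of these symbols, which yielded 43 probe sets of 44988. The brightest probe set over all 16 arrays stood for its gene, and the others are given beside it. All 9 genes lay above the 30th percentile of mean signal.

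The arrays were Affymetrix PrimeView arrays of total RNA from Nalm6, an established B-cell precursor acute lymphoblastic leukaemia line. The 4 groups of 4 arrays were control cells left untreated, control cells given prednisolone for 24 hours, cells whose genotype label reads active, overexpressed CASP1, left untreated, and those cells given prednisolone for 24 hours. Prednisolone is a synthetic glucocorticoid, the sources used here give no dose, and the sample labels spell it as a form of prednisone. How the CASP1 construct was made or introduced, what the control cells carry, and whether either line is 1 clone or a pool is stated in none of the sources used here. All groups grew in the same serum-containing medium.

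The CASP1 signal went against the genotype label. It was 7.75 ± 0.15 (SD, n = 4) on the log2 scale in untreated control cells and 5.69 ± 0.25 (n = 4) in untreated CASP1-labelled cells, and 7 of 9 CASP1 probe sets were called lower there. The arrays are named by their label, and every direction between the lines below rests on that label. The glucocorticoid receptor gene NR3C1, whose transcript glucocorticoids raise in lymphoid leukaemia cells, rose from 10.18 to 11.42 in control cells and from 10.15 to 11.002 in CASP1-labelled cells. Of the markers fixed for B-cell precursors, 11 of 11 measured genes lay above the median gene, against 1 of 7 for T cells (LCK), 1 of 6 for natural killer cells (NKG7), 0 of 7 for myeloid cells and 0 of 6 for stromal cells. The mean of the myeloid markers was 3.36 to 3.53 over the untreated control arrays and 3.22 to 3.27 over the treated ones, and 3.52 to 3.78 and 3.33 to 3.39 in CASP1-labelled cells. LYZ, the lysozyme gene, was the 1 of these 7 called under prednisolone, with group means of 4.01 untreated and 3.06 treated in control cells and 5.35 and 3.41 in CASP1-labelled cells. The mean of the other 6 was 3.27 to 3.42 and 3.24 to 3.29 in control cells and 3.25 to 3.45 and 3.31 to 3.37 in CASP1-labelled cells. The 4 arrays of replicate 1 stood apart from the other 12. Their deviations from group means correlated at 0.19 to 0.51, against -0.35 to 0.30 between arrays of different replicate numbers. On them 28.6% of genes lay to the same side in all 4 groups, a share not given for the other replicate numbers. Counts and values are therefore given with and without replicate 1.

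MHC class I molecules show fragments of a cell's own proteins to CD8 T cells. A heavy chain (HLA-B, HLA-C and their relatives) pairs with the small subunit beta-2 microglobulin, made from B2M. Peptides cut by the proteasome are pumped into the endoplasmic reticulum by the transporter TAP1-TAP2, and tapasin, made from TAPBP, holds the empty class I molecule beside that transporter while a peptide is loaded. HLA-E presents leader peptides of other class I chains to the CD94/NKG2 receptors of natural killer cells, HLA-F is a further non-classical chain, and NLRC5 is the transactivator that drives class I genes in lymphoid cells. Interferons raise most of the pathway through promoter elements bound by interferon regulatory factors, and NF-Y binds the CCAAT box of the promoter module that NLRC5 complexes use.

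Promoter sequences from RefSeq on GRCh38.p14 were matched for 7 of the 9 genes, all but HLA-E and NLRC5, and for TAP1 the first of 2 entries was used. The windows of 250 bases before to 50 bases after the start were searched on both strands for CCAAT and for the interferon-element letters GAAANNGAAA and GAANNGAAA. Of all 35116 windows in the table, 34.6% held CCAAT, 3.57% held GAAANNGAAA and 7.66% held GAANNGAAA. Of the 7 members, 5 held CCAAT, 5 held GAAANNGAAA and 3 held GAANNGAAA, and TAP2 held both interferon-element forms, which overlap there. The 250 bases before the start are printed 5′ to 3′ on the gene's strand for the heavy chains, whose line differences are described below, for TAP1, which rose most of the 9 under prednisolone, and for B2M, which passed no test. Capitals mark CCAAT and the interferon-element letters, on either strand.
HLA-B (chr6:31357180-31357429, minus strand): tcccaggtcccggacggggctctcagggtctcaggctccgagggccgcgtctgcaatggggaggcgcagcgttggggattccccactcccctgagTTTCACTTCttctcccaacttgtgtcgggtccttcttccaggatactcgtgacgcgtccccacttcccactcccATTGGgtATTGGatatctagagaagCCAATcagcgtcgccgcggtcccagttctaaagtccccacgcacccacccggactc
HLA-C (chr6:31272093-31272342, minus strand): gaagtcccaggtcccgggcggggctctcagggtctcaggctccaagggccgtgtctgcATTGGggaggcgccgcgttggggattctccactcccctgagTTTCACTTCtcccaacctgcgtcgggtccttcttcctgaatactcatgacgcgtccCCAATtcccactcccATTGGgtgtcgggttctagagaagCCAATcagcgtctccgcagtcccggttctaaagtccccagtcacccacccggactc
HLA-F (chr6:29723184-29723433, plus strand): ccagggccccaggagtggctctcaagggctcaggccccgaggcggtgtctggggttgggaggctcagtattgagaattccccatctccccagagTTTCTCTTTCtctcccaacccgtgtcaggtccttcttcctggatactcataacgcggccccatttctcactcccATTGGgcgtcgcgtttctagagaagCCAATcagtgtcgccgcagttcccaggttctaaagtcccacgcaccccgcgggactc
TAP1 (chr6:32853705-32853954, minus strand): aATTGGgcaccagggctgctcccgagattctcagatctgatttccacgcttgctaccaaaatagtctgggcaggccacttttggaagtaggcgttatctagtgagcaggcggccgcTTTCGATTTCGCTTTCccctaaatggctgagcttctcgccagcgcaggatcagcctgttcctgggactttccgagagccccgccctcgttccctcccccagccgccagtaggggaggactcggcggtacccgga
B2M (chr15:44711267-44711516, plus strand): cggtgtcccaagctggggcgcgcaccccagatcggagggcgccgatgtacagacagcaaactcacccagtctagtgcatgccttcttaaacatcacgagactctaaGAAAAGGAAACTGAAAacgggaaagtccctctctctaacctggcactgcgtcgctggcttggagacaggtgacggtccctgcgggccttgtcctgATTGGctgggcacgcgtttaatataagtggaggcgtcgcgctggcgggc

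In the window of TAP1 the overlapping pair of GAAANNGAAA matches started 134 and 128 bases before the start, and in that of B2M the pair started 144 and 138 bases before it. HLA-F held 1 such match 156 bases before the start, while HLA-B and HLA-C each held 1 of the shorter form, 155 and 151 bases before it. Over their aligned bases the windows of HLA-B and HLA-C were 90.9% identical, and that of HLA-F was 82.4% identical to HLA-B and 82.3% to HLA-C. The letters AGAACA, a core of the glucocorticoid receptor's binding motif, found in 14.8% of all windows on either strand, occurred in 0 of the 7 windows, which says only that these letters are not within 250 bases before or 50 after the start. These matches describe the sequence and were not measured as binding sites.

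In control cells, TAP1, HLA-F and HLA-E rose under prednisolone, while the classical heavy chains HLA-B and HLA-C and their light chain B2M did not pass the test. The 3 genes rose by 2.08-fold, 1.82-fold and 1.52-fold. Of the 9 genes, 3 were called higher at a limma adjusted p under 0.05, where 5.73% of all genes were called higher, and 0 were called lower, where 8.43% were (14.2% in either direction). At an unadjusted p under 0.05 the counts were 4 and 1. Many genes pass that threshold. NLRC5, the 1 lower member, had an unadjusted p of 0.044 (limma) and ranked 4111 by p among 18132 genes. The share of all genes passing it is not given, here or beside later counts at an unadjusted p. Such counts are a description, and an excess over all genes was not tested. The median difference of the 9 genes was 0.17 (log2), beside -0.01 over all genes. In bulk RNA, fewer cells of a kind and less RNA per cell cannot be told apart, and RMA brings the arrays to a common scale. Without the arrays of replicate 1, 3 genes were called higher and 1 lower, where 21.9% of all genes were called in either direction.

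TAP1, the first subunit of the peptide transporter, read 9.61, 9.65, 9.57 and 9.50 (log2) in untreated control cells, replicates 1 to 4, and 10.47, 10.73, 10.66 and 10.71 under prednisolone. All 4 treated arrays lay above all 4 untreated ones, by a difference of 1.06 ± 0.087 (SE, adjusted p = 1.2e-07, 95% interval of that gene 0.88 to 1.24). In CASP1-labelled cells the arrays read 9.90, 9.73, 9.68 and 9.71 untreated and 10.42, 10.22, 10.50 and 10.44 treated. These groups did not overlap either, and TAP1 rose by 0.64 ± 0.087 (SE, adjusted p = 1e-04, 1.56-fold). Both TAP1 probe sets were called in both lines, at 1.06 and 1.12 in control cells and 0.63 and 0.64 in CASP1-labelled cells.

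**Figure D1:**
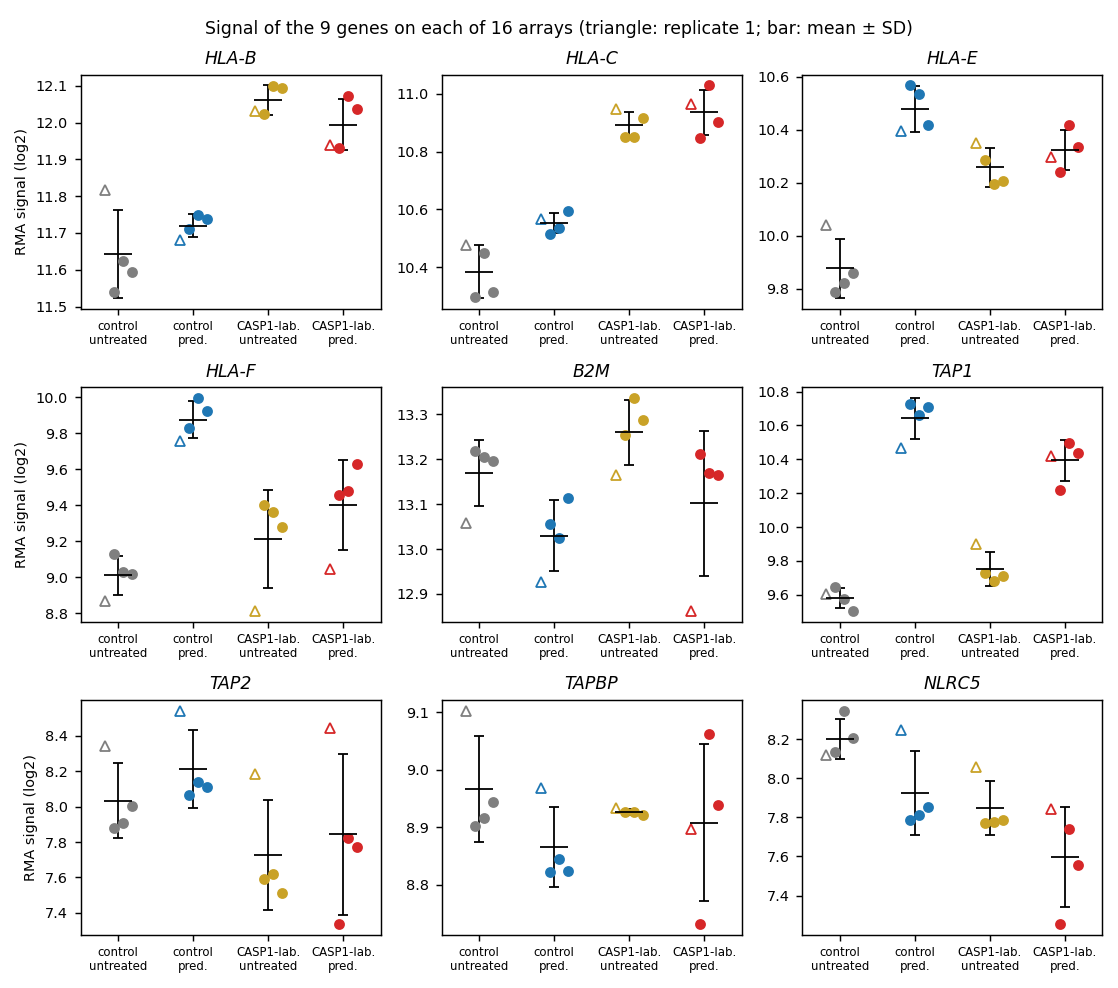
RMA signal (log2, vertical axis, a separate scale for each gene) of the 9 genes on each of the 16 arrays by group; triangles are replicate 1, circles replicates 2 to 4, and bars the mean ± SD of 4 arrays. TAP1 separates treated from untreated arrays in both lines, HLA-B and HLA-C separate the lines, and for TAP2 the triangle is the highest array of every group.

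HLA-F, the non-classical heavy chain, read 8.87, 9.13, 9.03 and 9.02 in untreated control cells and 9.76, 9.83, 10.00 and 9.92 under prednisolone. The groups did not overlap, at a difference of 0.86 ± 0.13 (SE, adjusted p = 0.00014), and the mean of its probe sets gave 0.53 (adjusted p = 0.00040). In CASP1-labelled cells the arrays read 8.81, 9.40, 9.36 and 9.28 untreated and 9.05, 9.46, 9.48 and 9.63 treated. There the groups overlapped, because replicate 1 was the lowest array of both, and the difference of 0.19 (95% interval -0.09 to 0.47, adjusted p = 0.523) did not pass. A dimmer HLA-F probe set was called there, as given with the probe sets below.

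HLA-E, the ligand of CD94/NKG2 receptors, read 10.04, 9.79, 9.82 and 9.86 in untreated control cells and 10.40, 10.57, 10.54 and 10.42 under prednisolone. All treated arrays were higher, by 0.60 ± 0.081 (SE, adjusted p = 3.6e-05). Untreated CASP1-labelled cells read 10.35, 10.29, 10.19 and 10.21, and treated ones 10.30, 10.24, 10.42 and 10.34. Those 2 groups overlapped, at a difference of 0.06 (95% interval -0.11 to 0.24, adjusted p = 0.767).

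HLA-C, a classical heavy chain, read 10.48, 10.30, 10.45 and 10.32 in untreated control cells and 10.57, 10.51, 10.54 and 10.60 under prednisolone. The treated arrays were all higher, but by 0.17 only, and this did not pass (adjusted p = 0.166, 95% interval 0.01 to 0.32). HLA-C was thus among the 4 genes whose treated arrays did not overlap the untreated ones from above, where 9.07% of all genes had such groups. HLA-B, the other classical chain of the set, differed by 0.08 (95% interval -0.08 to 0.24, adjusted p = 0.656) and its groups overlapped. B2M differed by -0.14 (95% interval -0.32 to 0.04, adjusted p = 0.387).

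The other members did not pass in control cells either. TAP2, the second subunit of the transporter, read 8.34, 7.88, 7.90 and 8.004 untreated and 8.54, 8.06, 8.14 and 8.11 treated, a difference of 0.18 with a wide interval of -0.23 to 0.59. TAPBP, the tapasin gene, differed by -0.10 (adjusted p = 0.547). NLRC5 read 8.12, 8.14, 8.34 and 8.21 untreated and 8.25, 7.79, 7.81 and 7.85 treated, so that only replicate 1 of the treated arrays reached the untreated range. Its difference of -0.28 did not pass with all arrays (adjusted p = 0.193), and it was -0.41 (adjusted p = 0.010) without the 4 arrays of replicate 1. Leaving out replicate 1 of the treated control cells alone gave -0.38 (adjusted p = 0.045).

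In CASP1-labelled cells, TAP1 was the 1 member called higher under prednisolone, where 2.99% of all genes were, and 0 were called lower, where 3.35% were (6.34% in either direction). At an unadjusted p under 0.05 the counts were also 1 and 0. The median difference of the 9 genes was 0.05, beside 0.02 over all genes. TAP1 was also the 1 gene whose treated arrays lay above all untreated ones, as they did for 5.31% of genes, and 0 lay below all of them, as 6.56% did. HLA-B differed by -0.07, HLA-C by 0.05, B2M by -0.16 (95% interval -0.34 to 0.03), TAP2 by 0.12, TAPBP by -0.02 and NLRC5 by -0.25 (95% interval -0.52 to 0.02), and none of these passed. Without the arrays of replicate 1 the count was also 1 higher and 0 lower, where 11.9% of all genes were called in either direction.

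Whether the responses differed was tested with the interaction, the response of CASP1-labelled cells less that of control cells. HLA-E was the 1 member called, at -0.54 ± 0.11 (SE, adjusted p = 0.031, 95% interval -0.78 to -0.30), where 0.364% of genes were called lower and 0.524% higher (0.888% in all). This call was narrow. It was lost on leaving out any 1 of 12 of the 16 arrays, with values from -0.56 to -0.51 and adjusted p up to 0.080, and it was kept without replicate 1 of either control group or without replicate 1 or 3 of the treated CASP1-labelled cells. Without all 4 arrays of replicate 1 it was -0.58 (adjusted p = 0.0059).

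HLA-F showed a larger but less certain difference between the responses, of -0.68 ± 0.19 (SE, adjusted p = 0.122), and TAP1 one of -0.42 ± 0.12 (adjusted p = 0.1499). Neither passed under this model. With array weights both did (adjusted p = 0.0049 for HLA-F and 0.018 for TAP1), as HLA-F did with a term for replicate 1 (adjusted p = 0.0054) and TAP1 when its probe sets were averaged (-0.46, adjusted p = 0.038). For HLA-F the average gave -0.33 (adjusted p = 0.314). Without the arrays of replicate 1 both passed, at -0.68 (adjusted p = 0.0030) for HLA-F and -0.45 (adjusted p = 0.041) for TAP1, which made 3 members lower where 1.29% of genes were called lower (4.01% in either direction). For HLA-F, leaving out replicate 1 of the untreated CASP1-labelled cells alone gave -0.81 (adjusted p = 0.023). For HLA-B, HLA-C, B2M, TAP2, TAPBP and NLRC5 the interaction lay between -0.14 and 0.08 with adjusted p of 0.727 or more. For TAP2 its interval ran from -0.64 to 0.52.

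**Figure D2:**
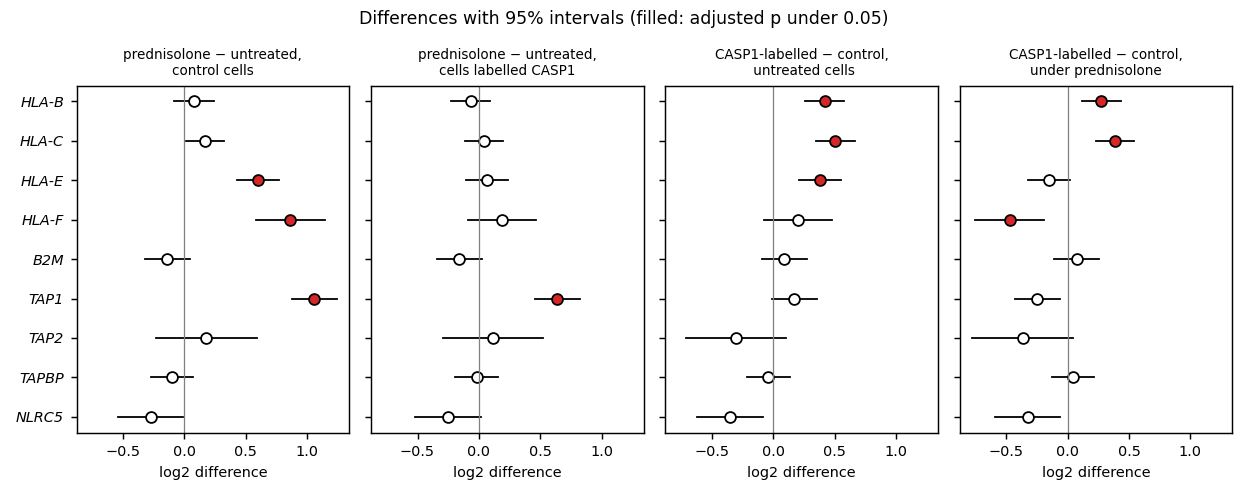
Log2 difference (horizontal axis) of each of the 9 genes in 4 comparisons, 1 per panel, with the 95% interval of that gene; filled points have a limma adjusted p under 0.05. TAP1 is filled in both prednisolone panels, HLA-E and HLA-F in the control panel alone, and HLA-B and HLA-C in both line panels.

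Between the lines without drug, the heavy chains HLA-C, HLA-B and HLA-E were 1.42-fold, 1.34-fold and 1.30-fold higher in CASP1-labelled cells, the arrays on which CASP1 itself read lower. The brightest probe sets of all 3 are of the kind that can cross-hybridize, as described with the probe sets below. The transporter, tapasin, B2M, HLA-F and NLRC5 did not pass. The counts were 3 called higher, where 5.87% of all genes were, and 0 lower, where 8.2% were (14.1% in either direction), and at an unadjusted p under 0.05 they were 3 and 1. The median difference of the 9 genes was 0.17, beside 0.01 over all genes. Without the arrays of replicate 1, 4 genes were called higher and 2 lower, where 21.4% of all genes were called in either direction.

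HLA-B read 11.82, 11.54, 11.62 and 11.59 in untreated control cells and 12.03, 12.02, 12.10 and 12.09 in untreated CASP1-labelled cells. The groups did not overlap, and the difference was 0.42 ± 0.076 (SE, adjusted p = 0.0010). HLA-C read 10.95, 10.85, 10.85 and 10.92 in untreated CASP1-labelled cells, all above the control values given earlier, by 0.51 ± 0.074 (SE, adjusted p = 0.00013). HLA-E was higher by 0.38 ± 0.081 (SE, adjusted p = 0.0035), again with no overlap. TAP1 was higher on all 4 arrays, yet by 0.17 only (adjusted p = 0.239), and with it 4 genes had groups that did not overlap from above, as 9.89% of all genes did.

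NLRC5 lay the other way. It read 8.06, 7.77, 7.78 and 7.79 in untreated CASP1-labelled cells, all below the untreated control arrays, as 11.8% of all genes did. The difference of -0.35 fell short under this model (adjusted p = 0.077, 95% interval -0.62 to -0.09). With the arrays kept it passed under a term for replicate 1 (adjusted p = 0.025), array weights (-0.43, adjusted p = 0.0011) and the 2 groups alone (adjusted p = 0.025), and it was -0.45 (adjusted p = 0.0062) when the 4 arrays of replicate 1 were left out. Leaving out replicate 1 of the treated control cells, or replicate 1 or 2 of the treated CASP1-labelled cells, left the value at -0.35 and brought the adjusted p to 0.044, 0.046 and 0.042. These 3 were the only single omissions under which NLRC5 passed, and over the others its adjusted p reached 0.196. Over the remaining alternatives it reached 0.123. TAP2 differed by -0.31 (adjusted p = 0.381, or 0.042 with a term for replicate 1 and 0.033 with array weights), and without replicate 1 by -0.36 (adjusted p = 0.029). HLA-F differed by 0.20 (adjusted p = 0.401, or 0.027 with array weights), and without replicate 1 by 0.29 (adjusted p = 0.014). With the mean of the probe sets none of these passed, at -0.34 (adjusted p = 0.085) for NLRC5, -0.28 (adjusted p = 0.374) for TAP2 and 0.13 (adjusted p = 0.435) for HLA-F. B2M differed by 0.09 (95% interval -0.09 to 0.27) and TAPBP by -0.04 (95% interval -0.21 to 0.13).

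Under prednisolone the classical chains were again higher in CASP1-labelled cells, whereas HLA-F was lower. Of the 9 genes, 2 were called higher, where 7.88% of all genes were, and 1 lower, where 8.52% were (16.4% in either direction). The same 3 genes were those whose groups did not overlap, as was the case in that direction for 10.1% and 9.56% of all genes. The median difference of the 9 genes was -0.16, beside 0.04 over all genes. Without the arrays of replicate 1, 2 were called higher and 3 lower, where 22.4% of all genes were called in either direction.

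HLA-C read 10.97, 10.85, 11.03 and 10.90 in treated CASP1-labelled cells, higher than in treated control cells by 0.38 ± 0.074 (SE, adjusted p = 0.0015, 1.30-fold). HLA-B read 11.94, 11.93, 12.07 and 12.04 there and 11.68, 11.71, 11.75 and 11.74 in treated control cells. The difference was 0.27 ± 0.076 (SE, adjusted p = 0.018, 1.21-fold), and without replicate 3 of the treated CASP1-labelled cells it was 0.25 (adjusted p = 0.051). Fitted on the 2 treated groups alone, its adjusted p was 0.055, and the mean of its probe sets gave 0.51 (adjusted p = 0.00015).

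HLA-F was lower by 0.47 on the log2 scale (difference -0.47 ± 0.13, SE, adjusted p = 0.020, 1.39-fold). This call was lost without replicate 1 of the treated CASP1-labelled cells (-0.35, adjusted p = 0.060) and without replicate 3 or 4 of the treated control cells (-0.43, adjusted p = 0.061, and -0.46, adjusted p = 0.051). It also depended on the probe set, since the mean of the 10 HLA-F probe sets gave -0.20 (adjusted p = 0.148). HLA-E differed by -0.16 (95% interval -0.33 to 0.01, adjusted p = 0.222).

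TAP1 differed by -0.25 (adjusted p = 0.060) and passed without the arrays of replicate 1 (-0.32, adjusted p = 0.011), without replicate 1 of the treated control cells (-0.31, adjusted p = 0.026) and without replicate 1 of the untreated CASP1-labelled cells (-0.25, adjusted p = 0.049). TAP2 differed by -0.37 (adjusted p = 0.229), by -0.46 (adjusted p = 0.0068) once replicate 1 was left out in all groups, and by -0.57 (adjusted p = 0.030) without that of the treated CASP1-labelled cells. NLRC5 differed by -0.33 (adjusted p = 0.092), by -0.30 (adjusted p = 0.052) once replicate 1 was left out in all groups, and by -0.41 (adjusted p = 0.038) without that of the treated CASP1-labelled cells. With a term for replicate 1 or with array weights these 3 genes passed on all arrays (adjusted p of 0.043 and 0.0098 for TAP1, 0.013 and 0.021 for TAP2, and 0.034 and 0.037 for NLRC5). The mean of the probe sets gave -0.27 (adjusted p = 0.017) for TAP1, -0.37 (adjusted p = 0.164) for TAP2 and -0.14 (adjusted p = 0.480) for NLRC5. B2M and TAPBP differed by 0.07 and 0.04.

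Replicate 1 lay on the same side of the mean of its 3 group mates in every group for HLA-F (by -0.54 to -0.16), B2M (-0.32 to -0.13), TAP2 (0.41 to 0.80) and HLA-C (0.02 to 0.12). For HLA-F, as the values above show, it was the lowest array of every group. B2M read 13.06, 13.22, 13.20 and 13.20 in untreated control cells, 12.93, 13.06, 13.02 and 13.11 in treated ones, 13.16, 13.25, 13.34 and 13.29 in untreated CASP1-labelled cells and 12.86, 13.21, 13.17 and 13.16 in treated ones, so replicate 1 was the lowest array of every group. TAP2 read 8.18, 7.59, 7.62 and 7.51 in untreated CASP1-labelled cells and 8.44, 7.34, 7.82 and 7.77 in treated ones, and replicate 1 was the highest array of every group. TAPBP read 9.10, 8.90, 8.92 and 8.94, then 8.97, 8.82, 8.85 and 8.82, then 8.93, 8.93, 8.93 and 8.92, and last 8.90, 8.73, 9.06 and 8.94 in the same order of groups. NLRC5 read 7.84, 7.26, 7.74 and 7.55 in treated CASP1-labelled cells, and over the groups replicate 1 lay -0.11 to 0.43 from the mean of the others. The part of replicate 1 in the results for these genes was not tested beyond the values given with and without it.

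The 43 probe sets were also fitted among all 44988. In control cells 15 of the 43 were called higher under prednisolone, where 5.33% of all probe sets were, and 0 lower, where 7.2% were. In CASP1-labelled cells 3 were called higher (2.45% of all) and 0 lower (2.96%). Between the untreated lines 12 were called higher (5% of all) and 0 lower (7.06%), and between the treated lines 6 higher (6.53%) and 5 lower (8.15%). For the interaction 0 of the 43 were called in either direction, where 0.262% and 0.253% were, so the HLA-E call held among 18132 genes and not among all probe sets.

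For HLA-E all 6 probe sets were called higher under prednisolone in control cells, by 0.41 to 0.65, and all 6 between the untreated lines, by 0.34 to 0.75. They disagreed between the treated lines, where 5 were below 0 and 1 was called higher, at 0.40 (adjusted p = 0.011). For HLA-F all 10 were above 0 under prednisolone in control cells by 0.22 to 0.86, and 6 of them were called. In CASP1-labelled cells all 10 were above 0 as well, by 0.08 to 0.61, and 1 was called. That probe set, with a mean signal of 5.84, was at 0.61 there (adjusted p = 0.018) and at 0.54 in control cells (adjusted p = 0.018). Without replicate 1 it was at 0.39 in CASP1-labelled cells (adjusted p = 0.084). For HLA-B all 3 were called between the lines with and without drug. For HLA-C all 3 were called between the untreated lines, 2 of 3 between the treated lines, and 1 of 3 under prednisolone in control cells (0.28), although the brightest was not.

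All 8 B2M probe sets lay below 0 under prednisolone in both lines, from -0.16 to -0.04 and from -0.16 to -0.05, with 0 called. Of these 8, 7 had distinct values, since 2 held identical values on every array. Of the 43, 20 carry the suffix that Affymetrix gives probe sets that can cross-hybridize with other sequences, and the class I heavy chains are near-identical over much of their length. The brightest probe sets of HLA-B, HLA-C and HLA-E carry the suffix, as do all 3 of HLA-C. Over the 16 arrays HLA-B and HLA-C correlated at r = 0.939 (Pearson), which includes the line difference of both. With group means removed, r was 0.610. An HLA-B probe set without the suffix, at a mean signal of 5.23, was called between the untreated lines at 0.68 (adjusted p = 0.028). How far a heavy-chain probe set reads 1 chain alone, and whether the heavy-chain calls are separate results, was not tested. One further probe set annotated to both HLA-B and HLA-C read 4.48, 4.37, 4.58 and 4.42 as group means, near the array medians of 4.85 to 4.93, and entered no test.

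**Figure D3:**
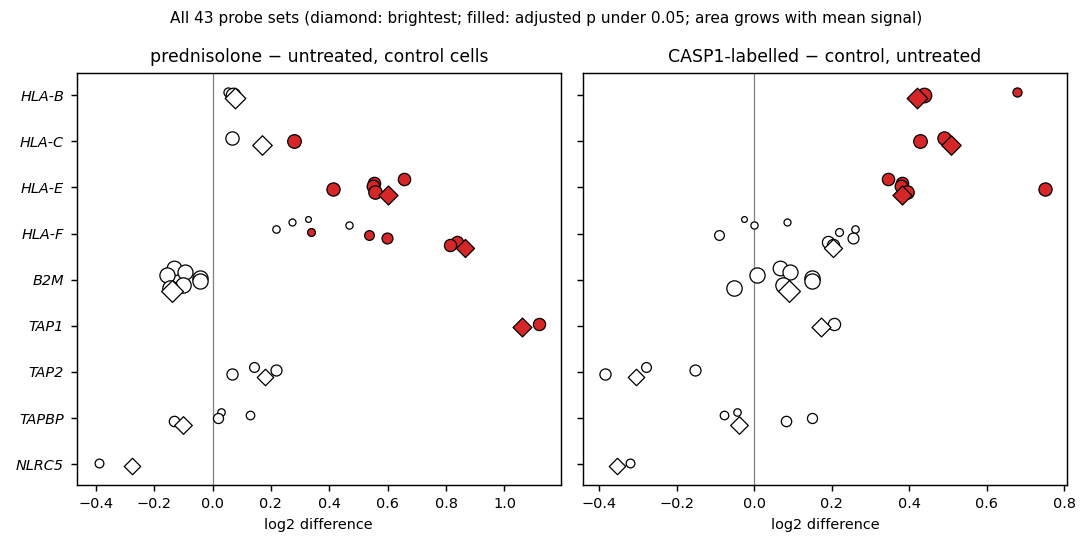
Log2 difference (horizontal axis) of all 43 probe sets, by gene, for prednisolone in control cells and for the untreated lines; the diamond is the brightest probe set of the gene, filled symbols have an adjusted p under 0.05 and the area grows with mean signal. All 6 HLA-E probe sets are filled in both panels, and those of HLA-F are filled in the left panel for 6 of 10.

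The rest of the pathway was read from lists by role. Their counts at an adjusted p under 0.05 stand beside the same shares of all genes as those of the members. These shares were 5.73% higher and 8.43% lower under prednisolone in control cells and 2.99% and 3.35% in CASP1-labelled cells. They were 5.87% and 8.2% between the untreated lines and 7.88% and 8.52% between the treated lines. Of 14 measured genes of peptide generation and trimming, 1 was called higher and 4 lower under prednisolone in control cells, with a list median of -0.15. PSMB8, an inducible catalytic subunit of the immunoproteasome, rose by 0.67 (adjusted p = 1.5e-05, 1.59-fold), with 10.66, 10.37, 10.40 and 10.40 untreated and 11.07, 11.13, 11.12 and 11.18 treated. The other 2 inducible subunits went the other way, PSMB10 at -0.38 (adjusted p = 0.0046) and PSMB9 at -0.32 (adjusted p = 0.036). So did PSME2 and PSME1, which form the proteasome activator PA28, at -0.75 (adjusted p = 0.00061) and -0.41 (adjusted p = 0.0025).

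PSMB9 lies beside TAP1 on the opposite strand, with starts 488 bases apart and 300-base windows that overlap by 13 bases. In CASP1-labelled cells it fell by 0.39 (difference -0.39, adjusted p = 0.022) while TAP1 rose. Both PSMB9 calls were fragile. In control cells it was lost without replicate 1, 2 or 4 of the untreated arrays or 1, 3 or 4 of the treated ones (adjusted p up to 0.115, at -0.26), and the mean of its probe sets gave -0.14 (adjusted p = 0.221). In CASP1-labelled cells it was 0.051 and 0.070 without replicate 1 or 4 of the untreated arrays. In those cells 0 of the 14 genes were called higher and 2 lower, the other being PSMB10 at -0.54 (adjusted p = 0.00062), and at an unadjusted p under 0.05 the counts were 2 and 4.

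Of 12 measured genes of folding, loading and export from the endoplasmic reticulum, 1 was called higher and 0 lower under prednisolone in control cells, and 0 in either direction in CASP1-labelled cells. At an unadjusted p under 0.05 these counts were 2 and 0, and 0 and 1. The 1 gene was HSPA5, the chaperone BiP, at 0.65 (adjusted p = 0.00068). Between the lines more of the list was called lower, with 5 of 12 called lower without drug (median -0.22) and 7 of 12 with it (median -0.47), and 0 called higher either way or at an unadjusted p under 0.05. TAPBPL, the tapasin-related peptide editor TAPBPR, was lower by 0.72 on the log2 scale (difference -0.72, adjusted p = 0.013) and -1.02 (adjusted p = 0.00088) with drug. HSPA5 was at -0.54 and -1.19, and the lectin chaperone CANX at -0.26 (adjusted p = 0.029) and -0.45 (adjusted p = 0.00046). CALR was at -0.66 (adjusted p = 0.038) and -0.86 (adjusted p = 0.0075). HM13 was at -0.40 without drug (adjusted p = 0.011) and PDIA3 at -0.84 with it (adjusted p = 0.023). The CALR call without drug was lost in 6 single-array omissions, and the PDIA3 call in 3. ERAP1, the aminopeptidase that trims peptides in the endoplasmic reticulum, belongs to the list of peptide generation and trimming. It differed by -0.57 (adjusted p = 0.0013) and -0.86 (adjusted p = 2.6e-05). Of the 14 measured genes of that list, 0 were called higher and 4 lower without drug, and 2 higher and 4 lower with it. PSMB5 was higher with drug, at 0.52 (adjusted p = 0.010). The mean of the probe sets gave -0.45 and -0.57 for TAPBPL and -0.33 and -0.39 for ERAP1, both called. In these comparisons TAPBP itself, as given above, was at -0.04 and 0.04.

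Of 23 measured genes that govern class I transcription, 9 were called higher and 3 lower under prednisolone in control cells, and 5 and 2 in CASP1-labelled cells. SOCS1, the feedback inhibitor of cytokine signalling, rose by 2.94 and 2.40, and CIITA, the class II transactivator, by 2.01 (adjusted p = 0.00019) and 1.47 (adjusted p = 0.0080). The mean of the probe sets gave 1.91 and 1.48 for SOCS1, and for CIITA 1.23 (adjusted p = 3.8e-05) in control cells and 0.53 (adjusted p = 0.068) in CASP1-labelled cells. IRF8, a lymphoid interferon regulatory factor, rose by 0.74 and 1.88, and its interaction of 1.14 passed (adjusted p = 0.0071), at 0.69 (adjusted p = 0.041) with the mean of the probe sets. IRF1, the factor that interferon induces at class I promoters, differed by -0.25 (adjusted p = 0.459) in control cells and by -0.60 (adjusted p = 0.043) in CASP1-labelled cells, a call that 10 of 16 single-array omissions removed (adjusted p up to 0.118). Between the lines, 2 of the 23 were called higher and 4 lower without drug (median 0.07), and 1 higher and 6 lower with it (median -0.11). IRF9 was higher without drug, at 0.64 (adjusted p = 0.00044). IRF8, whose rise was larger in CASP1-labelled cells, was lower there without drug, at -0.79 (adjusted p = 0.00066). The alternatives other than single omissions gave -0.79 to -0.40 for that difference. CIITA was lower at -1.63 and -2.18, and NFYA, a subunit of NF-Y, at -0.58 (adjusted p = 0.0037) and -0.85 (adjusted p = 0.00012). With the mean of the probe sets CIITA was at -0.51 (adjusted p = 0.046) and -1.21 (adjusted p = 7.2e-05), and NFYA at -0.27 (adjusted p = 0.032) and -0.47 (adjusted p = 0.00056). Of these lists, class I turnover had 2 of 6 called higher in control cells, 1 of them SUSD6 at 0.62 (adjusted p = 0.00090).

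Class II molecules present peptides to CD4 T cells and are described beside the 9 members. Of 11 measured class II chains and loading factors, 10 were called higher under prednisolone in control cells, with a median of 1.27, and 1 in CASP1-labelled cells, with a median of 0.50, against the 5.73% and 2.99% of all genes given above. HLA-DMB and HLA-DMA, the class II peptide exchange factor, rose by 2.17 (adjusted p = 7.7e-05) and 1.86 (adjusted p = 1.4e-05) in control cells. The count of 1 in CASP1-labelled cells was 9 without the arrays of replicate 1, where 5.77% of all genes were called higher. It reached 7 with a single array left out, and over these omissions 2.27% to 3.58% of all genes were called higher. Between the treated lines 8 of 11 were lower, with a median of -1.04, and the interaction called 0 of 11 with all arrays (7 lower and 0 higher at an unadjusted p under 0.05) and 6 lower without replicate 1, where 1.29% of all genes were.

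Of 37 measured interferon-stimulated genes, 4 were called higher and 6 lower under prednisolone in control cells, and 3 and 4 in CASP1-labelled cells, with medians of -0.03 and -0.02. These counts stand beside 5.73% and 8.43% of all genes in control cells and 2.99% and 3.35% in CASP1-labelled cells. ISG20, an RNA exonuclease, rose by 4.43 and 3.57, and MX1, an antiviral GTPase, by 1.65 and 1.78, while IFIT1 differed by -0.84 and -0.57. Of 4 further reported targets of NLRC5, PSMB9 and the 3 butyrophilin genes BTN3A1 to BTN3A3, PSMB9 alone was called in either line. Of 15 class I-like and stress ligands, 1 fell under prednisolone in each line, MICB, a ligand of the NKG2D receptor, at -0.46 in both (adjusted p = 0.0061 and 0.014, the second 0.077 with the compared groups alone). Between the untreated lines 3 were higher and 1 lower, with FCGRT, the neonatal Fc receptor chain that pairs with B2M, at 1.45 (adjusted p = 1.1e-06) and, averaged over probe sets, 0.60 (adjusted p = 0.00051), and MICA at 1.20 (adjusted p = 0.00022). The HLA class I genes outside the set that were measured, HLA-G and HLA-H, passed in 0 of 5 comparisons, also at an unadjusted p under 0.05.

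**Figure D4:**
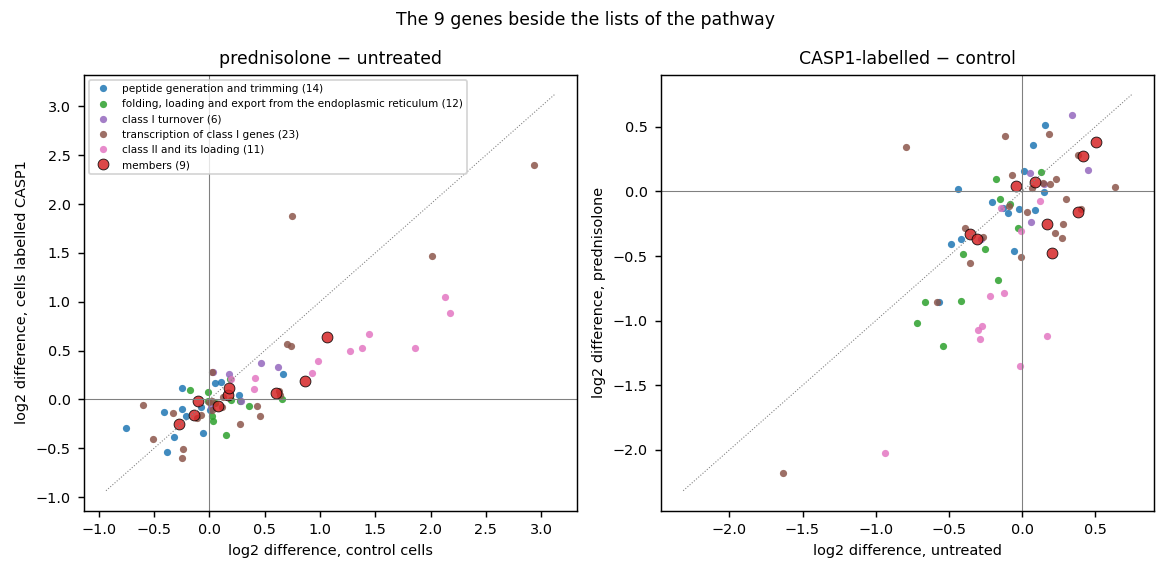
Log2 differences of the 9 members (large red points) and of the genes of 5 lists; left, prednisolone in control cells (horizontal) against CASP1-labelled cells (vertical), which share no arrays; right, the untreated lines (horizontal) against the treated lines (vertical); the dotted line marks equal values. In the left panel the class II genes reach 2.17 on the horizontal axis and lie below the dotted line, and TAP1 is the highest member at 1.06 and 0.64.

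The genes whose pattern over the 16 arrays was most like the mean of the 9 members, each scaled to mean 0 and SD 1, were sought among 12683 genes outside the set and above the 30th percentile of mean signal. The 5 with the highest Pearson correlation over 16 arrays were CDC42SE1 (r = 0.892), H1-10 (0.883), ABHD2 (0.872), SLC8B1 (0.869) and BSDC1 (0.865). The points share groups, processing and replicate 1, so the coefficients are a description. The members did not share 1 pattern, since their pairwise correlations ran from -0.848 (B2M and TAP2) to 0.939 (HLA-B and HLA-C). A gene like their mean is thus not shown to follow each member. In SLC8B1 the differences were 0.74 and 0.17 under prednisolone in control cells and in CASP1-labelled cells, and 0.64 and 0.08 between the untreated and the treated lines.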

How the data were processed

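Total RNA of Nalm6 cells was measured on 16 PrimeView arrays, 4 in each of 4 groups taken from the sample labels. The authors deposited RMA signals on the log2 scale, per the submitters' processing notes, and the sources used here name no software version or probe set definition. The table had 49395 probe sets and 16 columns, with array medians of 4.85 to 4.93, and was used without further normalization. The platform annotation named them (44988 with 1 gene, 1832 with several, 2473 with none, 102 controls), and 99.94% of the former were found in RefSeq by Entrez identifier. The number of arrays limits the precision.

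Each gene's brightest probe set was modelled by its 4 group means in limma 3.58.1 (R 4.3.3; 12 residual and 5.46 prior degrees of freedom, median residual SD 0.167), in a model checked on simulated data. The moderated two-sided test gave p-values adjusted by Benjamini and Hochberg over 18132 genes in each comparison, and calls were made under 0.05. All adjusted p-values printed are limma's. Intervals are for each gene alone. No label says whether replicates were grown separately, so the p-values speak only for the spread between these samples, which may be technical. The comparisons of prednisolone in control cells and of the untreated lines share the untreated control arrays, as other pairs share groups, so their values are set side by side only.

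The 9 members, the 9 lists (130 genes, 123 measured) and the tests were chosen with earlier results of these data known. Named were CASP1 and NR3C1, the members, PSMB8, PSMB9, CIITA and IRF1, up to 4 called genes of each list and comparison with the largest absolute difference, and the 5 genes most like the members' mean. Of these called list genes, not all are printed. CANX, HLA-G, HLA-H, LYZ and the BTN3A genes were named after their values were seen. The alternatives were quantile normalization again, centring on the 75th percentile, leaving out the dimmest 30% of genes, the mean of a gene's probe sets, a trended robust variance, array weights, the compared groups alone, a replicate block, a term for replicate 1, leaving out replicate 1, and leaving out each array.

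Promoter windows came from a RefSeq table on GRCh38.p14. Figures were drawn with matplotlib 3.10.9.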

Additional observations from a re-analysis of the deposited data

Results flagged for a closer look

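The HLA-E response to prednisolone differed between the lines by the interaction test, at -0.54 (log2, adjusted p = 0.031, limma), with differences of 0.60 in the control line and 0.06 in the CASP1-labelled one. This call was narrow, as given above. It was lost on leaving out any 1 of 12 of the 16 arrays (adjusted p up to 0.080). In the fit of all probe sets, 0 of the 6 HLA-E probe sets were called for the interaction.

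In 7 of the 36 groups of 4 arrays (9 genes in 4 groups), the lowest or highest array lay far from the other 3 by Dixon's test, of which chance flags about 1 in 20. All 7 were replicate 1, on whose arrays 28.6% of all genes lay to the same side in all 4 groups. That share is not given for the other replicate numbers. How often all genes are flagged this way is not given, so the 7 are not a trait shown to be particular to the members. B2M was low on it in untreated control cells (13.06) and in treated CASP1-labelled cells (12.86). TAP2 was high on it in treated control cells (8.54) and at 8.18 in untreated CASP1-labelled ones. TAPBP was high on it in treated control cells (8.97). NLRC5 was high on it in treated control cells (8.25) and in untreated CASP1-labelled cells (8.06).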

How the results depend on the processing

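The 3 rises of prednisolone in control cells, the rise of TAP1 in the CASP1-labelled line and the 3 line differences of untreated cells kept their call and direction under every alternative run, leaving out each array included. Over the single differences of the 9 genes and 5 comparisons and all alternatives, 1072 kept direction and side of the threshold, 43 gained a call, 18 lost one and 28 changed sign, none of the 28 being called. With a replicate block, 2 members were lower between the untreated lines (TAP2 and NLRC5), where 10.1% of all genes were (8.2% without the block), 3 between the treated lines (10.5% against 8.52%) and 2 for the interaction (HLA-E and HLA-F; 0.673% against 0.364%). The number 1 ties its 4 arrays together, with correlations of deviations from 0.19 to 0.51 in all 6 pairs, against -0.35 to 0.30 between different numbers. Those of replicates 2 to 4 ran from -0.12 to 0.26 and were not all above 0.1, so the numbers were not taken to pair the arrays. The block moved no other count of members beyond 1.5 times.

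Other settings moved the smaller counts of members. The share of all genes called moved with them and is given in parentheses. Called lower under prednisolone in control cells, against 0 (8.43%), was 1 with array weights (14.8%) or without the 4 arrays of replicate 1 (13.1%). Called lower between the untreated lines, against 0 (8.2%), was 2 with array weights (14.5%), a term for replicate 1 (11.1%) or without replicate 1 (12.8%), and 1 with the compared groups alone (9.42%). Called lower between the treated lines, against 1 (8.52%), was 4 with array weights (11.1%) or a term for replicate 1 (11.4%), 3 without replicate 1 (10.8%), and 2 with a trended robust variance (8.81%) or without the dimmest 30% of genes (13%). Called higher there was 1 with the compared groups alone (5.38%), against 2 (7.88%). Called lower for the interaction, against 1 (0.364%), was 3 with array weights (1.4%) or without replicate 1 (1.29%), and 2 with the mean of probe sets (0.447%) or a term for replicate 1 (0.838%). Leaving out single arrays gave 0 to 1, 0 to 1, 0 to 2, 1 to 2 and 0 to 1 for these counts in the order given. Without replicate 1, the counts of the 43 probe sets called lower were 2 in control cells under prednisolone (11.4% of all probe sets, against 7.2% with it), 2 between the untreated lines (11% against 7.06%), 8 between the treated lines (10.2% against 8.15%) and 9 for the interaction (1.22% against 0.253%). With replicate 1 these counts were 0, 0, 5 and 0.

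Without replicate 1 the list counts rose mainly for class II genes (5 lower between the untreated lines, against 1) and interferon-stimulated genes (7 higher in control cells under prednisolone, against 4, and 10 lower between the untreated lines, against 6), as did the shares of all genes (12.8% lower between the untreated lines and 8.8% higher in control cells); the cause was not tested. The changes of sign lay near 0. For TAPBP they were 0.017 (quantile normalization) and 0.016 (array weights) under prednisolone in CASP1-labelled cells, with -0.071 to 0.039 over single arrays; 0.00064 (75th percentile), 0.014 (mean of probe sets) and 0.0035 (without replicate 1) between the untreated lines, with -0.061 to 0.0059; -0.045 (mean of probe sets) between the treated lines, with -0.0092 to 0.10; and -0.059 (mean of probe sets) for the interaction. For B2M the interaction was 0.0087 (array weights), 0.012 (mean of probe sets) and 0.031 (without replicate 1), with -0.055 to 0.061 over single arrays. For HLA-B the mean of probe sets gave 0.069 under prednisolone in CASP1-labelled cells and 0.0021 for the interaction. Over single arrays TAP2 ran from -0.083 to 0.29 under prednisolone in CASP1-labelled cells and from -0.26 to 0.11 for the interaction, and NLRC5 from -0.055 to 0.14 for the interaction, which was 0.15 without replicate 1.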
